A study of Homo sapiens with 6 samples.

Results

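Kruppel-like factors (KLFs) are a family of transcription factors. The genes KLF2, KLF3, KLF4, KLF5, KLF6, KLF7, KLF9, KLF10, KLF11 and KLF13 were followed in SW1990, an established cell line of human pancreatic ductal adenocarcinoma, with and without the DOT1L inhibitor EPZ-5676. The members were the rows of the deposited count table whose gene symbol was one of these names, which gave 10 genes of 58735. The treated group of 3 libraries came from SW1990 cells given 5 µM EPZ-5676, and the control group of 3 libraries from SW1990 cells that the sample characteristics call untreated and the treatment protocol describes as given the solvent DMSO in equal volume. Both groups are the same single cell line in the same medium with serum, so they represent 1 tumour. The time of exposure was not found in the labels. DOT1L methylates histone H3 along transcribed genes, and the question of the series was which mRNAs differ when it is inhibited. Whether the replicates were separate cultures is not said, and the p-values then cover only the spread among these libraries, possibly technical.

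KLF proteins end in a run of C2H2 zinc fingers that is very alike across the family and binds GC-rich and CACCC sequences, the same kind of site that SP factors such as SP1 bind. The N-terminal parts differ and set the role. KLF2, KLF4, KLF5, KLF6 and KLF7 are best known as activators that recruit histone acetylases, although KLF4 also represses. KLF3 is a repressor that binds the corepressor CtBP, and KLF9, KLF10, KLF11 and KLF13 bind the SIN3 corepressor. In pancreatic epithelium KLF4 and KLF5 have been tied to the early ductal lesions from which this cancer arises, and KLF10 and KLF11 are early targets of TGF-beta.

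Of the 10 genes, 1 rose and 3 fell in treated cells. KLF2 rose 1.91-fold, KLF9 was 1.88-fold lower, and KLF4 and KLF6 were each 1.35-fold lower. The other 6 (KLF3, KLF5, KLF7, KLF10, KLF11 and KLF13) did not pass the test. Genes are said to have risen or fallen where the adjusted p was under 0.05 in edgeR's quasi-likelihood test over 15496 genes, and each log2 fold change is treated over control, with its standard error (SE). In the same test 15.0% of all genes were called higher and 18.7% lower, so 1 and 3 of 10 genes lie near the background. The median log2 fold change was -0.22 over the 10 genes and -0.05 over all tested genes. DESeq2 and limma-voom also called 1 of the 10 higher and 3 lower.

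Across all tested genes the fold change followed the GC content of the transcript (Spearman rho 0.66 over 15487 genes, which are not independent replicates). Fold changes of the members and of the called related genes are therefore also given after a correction that removes smooth trends with GC content and transcript length from each library. It also removes any effect of the treatment that follows these properties, and the part of GC content in the results was not tested further. The correction left 5.40% of genes called higher and 5.57% lower. After it, KLF9 and KLF4 were called lower and no KLF gene was called higher by edgeR (2 were higher and 3 lower at an unadjusted p under 0.05).

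All 10 genes passed the filter on low counts, with 106 to 5016 reads per library out of totals of 33970420 to 39749648. The label of an epithelial carcinoma line was checked against 11 epithelial markers. Keratin mRNAs were abundant (KRT8 at 2418 to 3974 CPM, which is the read count scaled for library size), but CDH1, the E-cadherin gene, had 0 reads in every library, which allows up to 0.0754 to 0.0966 CPM, and KRT19 was at 0.202 to 0.744 CPM. The summed level of the 11 markers was 5586 to 6407 CPM in control libraries and 6788 to 8627 CPM in the treated libraries, without overlap, and its part in the KLF results was not tested. Most of the sum was KRT7, KRT8 and KRT18. EPCAM was low, at 1.89 ± 0.61 CPM in controls and 1.08 ± 0.38 CPM in treated libraries. Its groups did not overlap, but it did not pass (-0.81 ± 0.40, adjusted p = 0.123, edgeR). Of the 10 epithelial markers tested, KRT8, KRT18 and CLDN4 were called higher and none lower (0 lower at an unadjusted p under 0.05 and 0 in DESeq2 and limma-voom). Over all tested genes 15.0% were called higher and 18.7% lower, and 5.40% and 5.57% after the correction. After the correction none of these markers was called higher (0 at an unadjusted p under 0.05) and CLDN7 was called lower (-0.34, adjusted p = 0.00797, edgeR), with a median over the markers of 0.18 before and -0.19 after it. The limits at 0 reads cover counting error only. The 7 fibroblast markers summed to 86.1 to 96.4 CPM in controls and 97.1 to 104.7 CPM in treated libraries, without overlap. Most of that sum was COL1A1 and DCN, with means of 44.3 and 33.5 CPM in controls. Of 6 tested, 2 were called higher and 2 lower, and none after the correction. The 4 endothelial markers summed to 1.80 to 3.18 CPM in controls and 1.54 to 3.38 CPM in treated libraries. The part of either list in the KLF results was not tested. Of 5 immune markers, PTPRC (CD45), LYZ and CD3E stood apart in control replicate 2, with 153, 77 and 14 reads against at most 8, 2 and 0 in any other library, while CD68 and CD14 had at most 6 and 10 reads anywhere. The summed level of the 5 markers was 7.30 CPM in that library, 0.277 and 0.268 CPM in the other controls, and 0.228 to 0.354 CPM in the treated libraries. KLF2, KLF6, KLF7, KLF16 and MAP3K3 are also given without control replicate 2 where they are named.

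KLF2, an activator best known from quiescent endothelial cells and lymphocytes, lies on chromosome 19, 16324817 to 16327874 (GRCh38). Its mRNA was at 2.67, 5.10 and 3.75 CPM in control replicates 1, 2 and 3, and at 6.47, 7.84 and 7.66 CPM in the treated libraries. Every treated library was above every control, and control replicate 2, the library with immune markers, was the highest control. The log2 fold change was 0.94 ± 0.24 (SE, adjusted p = 0.0063, edgeR), and 1.21 without control replicate 2 (adjusted p = 0.000835, edgeR). The call held in edgeR without any 1 of the 6 libraries. KLF2 has the most GC-rich transcript of the 10 (65.2%), and after the correction the change was 0.51 ± 0.22 (adjusted p = 0.141), and 0.68 without control replicate 2 (adjusted p = 0.0738).

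KLF9 lies on chromosome 9, 70384597 to 70414624, and encodes a small SIN3-binding repressor induced by glucocorticoids and thyroid hormone. Control libraries had 18.6, 14.8 and 20.7 CPM of its mRNA, and treated libraries had 6.34, 13.1 and 9.25 CPM. The groups did not overlap, but the treated libraries spread over a wide range, with replicate 1 lowest and replicate 2 close to the lowest control. The log2 fold change was -0.91 ± 0.21 (adjusted p = 0.00286, edgeR). The call held without any 1 library, at -0.69 without treated replicate 1 (adjusted p = 0.0209) and -1.20 without treated replicate 2. After the correction KLF9 was still lower (-0.70 ± 0.18, adjusted p = 0.0133). That call was lost without control replicate 3 (-0.63, adjusted p = 0.0532), treated replicate 1 (-0.51, adjusted p = 0.082) or treated replicate 3 (-0.67, adjusted p = 0.0576).

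KLF4, on chromosome 9, 107484852 to 107490482, encodes a reprogramming factor that supports differentiation and growth arrest in epithelia. It was at 16.02, 14.2 and 18.8 CPM in control libraries and at 11.04, 12.9 and 12.2 CPM in the treated libraries, again without overlap. The log2 fold change was -0.44 ± 0.16 (adjusted p = 0.0448, edgeR), which lies just under the threshold. It was not past it with RLE scaling (-0.39, adjusted p = 0.0624), with upper-quartile scaling (-0.42, adjusted p = 0.053) or without a filter on low counts (-0.44, adjusted p = 0.0591). Leaving out 1 library lost the call for every library but control replicate 2, with an adjusted p of 0.0664 without treated replicate 2, 0.0871 without control replicate 1, 0.103 and 0.151 when treated replicate 3 or 1 was left out, and 0.219 when control replicate 3 was. The transcript of KLF4 has a GC content of 55.0%, within the middle 50% of tested genes (42.7% to 56.9%), and among genes of 54% to 56% GC the median change was 0.21, so KLF4 moved against its GC class. The correction accordingly moved it further from 0, to -0.63 ± 0.15 (adjusted p = 0.00676), and the corrected call was lost only without control replicate 3 (-0.52, adjusted p = 0.0515).

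KLF6, on chromosome 10, 3775996 to 3785281, is a widely expressed factor induced by injury and stress. Its mRNA was at 82.9, 59.3 and 80.7 CPM in control libraries and at 47.5, 60.8 and 57.0 CPM in the treated libraries. Control replicate 2 lay inside the treated range, so the groups overlapped. The log2 fold change was -0.43 ± 0.13 (adjusted p = 0.0145, edgeR), and -0.55 without control replicate 2 (adjusted p = 0.00119). The call was lost without control replicate 1 (adjusted p = 0.0796), control replicate 3 (adjusted p = 0.0838) or treated replicate 1 (adjusted p = 0.0914). After the correction it was -0.19 ± 0.10 (adjusted p = 0.239).

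**Figure D1:**
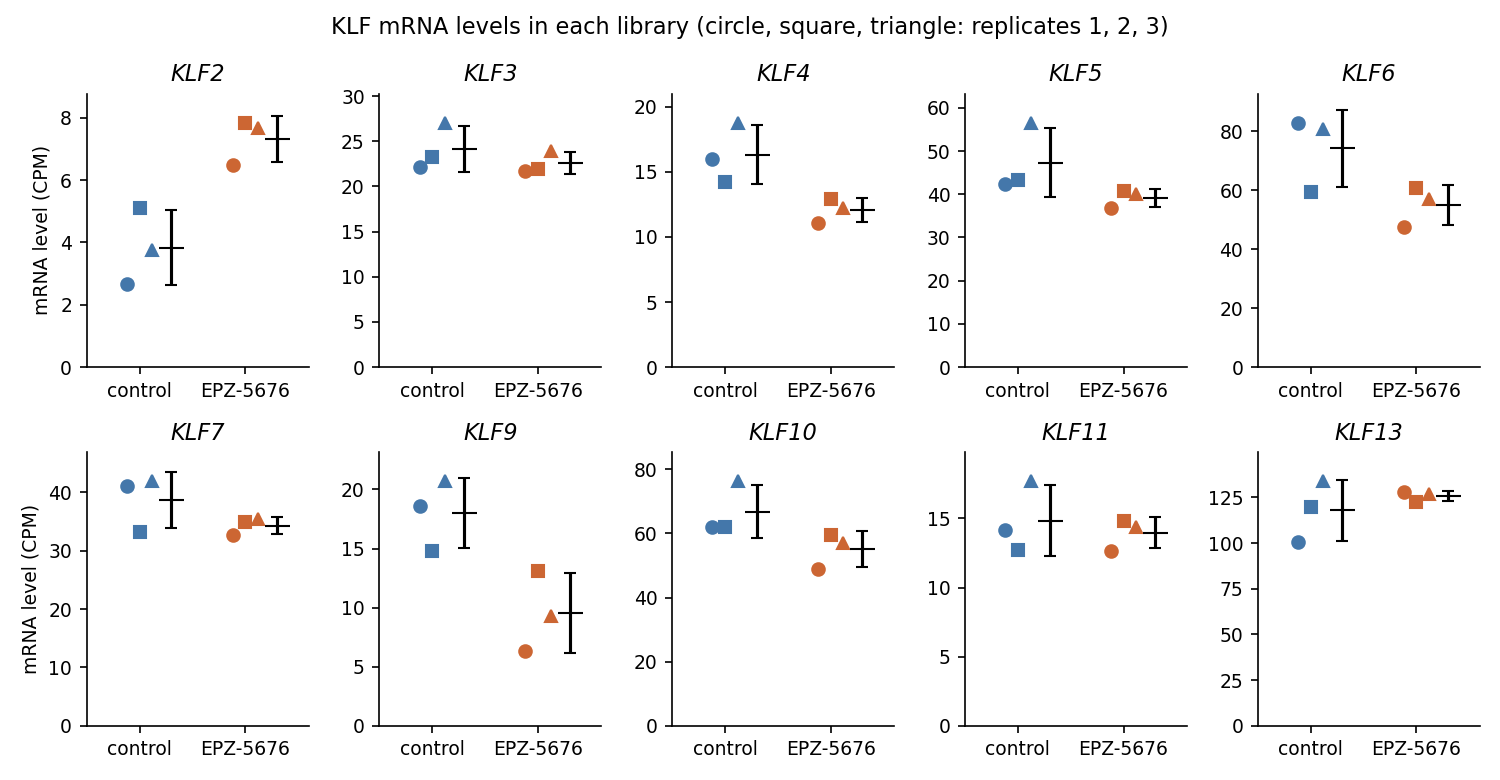
mRNA level of each KLF gene in CPM (vertical axes, linear from 0) in the 3 control (blue) and 3 EPZ-5676 (orange) libraries, with circles, squares and triangles for replicates 1, 2 and 3 and black bars for the mean ± SD. Every treated library is above every control for KLF2 and below for KLF4, KLF5, KLF9 and KLF10, while the groups overlap for the other 5 genes.

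KLF5, on chromosome 13, 73054976 to 73077542, promotes growth of epithelial cells. It was at 42.3, 43.2 and 56.5 CPM in control libraries and at 36.8, 40.6 and 40.1 CPM in the treated libraries. The groups did not overlap, yet the log2 fold change of -0.27 ± 0.13 did not pass (adjusted p = 0.103, edgeR), with control replicate 3 well above the other controls. KLF10, a TGF-beta-inducible repressor on chromosome 8, 102648779 to 102655902, was at 62.0, 62.1 and 76.3 CPM in control libraries and at 48.9, 59.6 and 57.0 CPM in the treated libraries. Its groups did not overlap either, with a change of -0.28 ± 0.12 on the log2 scale (adjusted p = 0.0742, edgeR). After the correction KLF5 was at -0.09 and KLF10 at -0.11, with adjusted p of 0.639 and 0.509.

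Counted over the 10 genes, every treated library was above every control for 1 gene and below for 4. Over all tested genes these shares were 21.8% and 24.2%. Control replicate 3 was the highest control for 8 of the 10 genes, and treated replicate 1 was the lowest treated library for 9 of the 10, all but KLF13. The part of these 2 libraries in the changes beyond the fits that leave them out was not tested.

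The remaining 4 members overlapped between the groups and did not pass the test. KLF13, a SIN3-binding factor known for its part in T cells, lies on chromosome 15, 31326855 to 31435665, and was at 100.4, 119.5 and 133.8 CPM in control libraries and at 128.1, 122.5 and 126.8 CPM in the treated libraries. Its treated libraries lay inside the control range, with a log2 fold change of 0.09 ± 0.11 (adjusted p = 0.539, edgeR), and -0.17 ± 0.08 after the correction (adjusted p = 0.16). KLF11, a relative of KLF10 on chromosome 2, 10042849 to 10054836, was at 14.1, 12.7 and 17.7 CPM in control libraries and at 12.7, 14.8 and 14.4 CPM in the treated libraries, a log2 fold change of -0.09 ± 0.17 (adjusted p = 0.726, edgeR), and 0.11 ± 0.14 after the correction (adjusted p = 0.698).

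KLF7, an activator studied in neurons and fat cells, lies on chromosome 2, 207074137 to 207167267. It was at 41.1, 33.1 and 41.9 CPM in control libraries and at 32.6, 34.9 and 35.4 CPM in the treated libraries, with control replicate 2 inside the treated range. KLF3, the CtBP-binding repressor on chromosome 4, 38664196 to 38701042, was at 22.2, 23.3 and 27.0 CPM in control libraries and at 21.8, 21.9 and 23.9 CPM in the treated libraries, with overlap. Their log2 fold changes were -0.17 ± 0.13 and -0.10 ± 0.14 (adjusted p = 0.305 and 0.621, edgeR). Without control replicate 2, KLF7 was at -0.26 (adjusted p = 0.126, edgeR). KLF3 and KLF7 have the lowest transcript GC content of the 10 (41.5% and 43.8%), and the correction turned their signs, to 0.35 ± 0.12 (adjusted p = 0.0706) and 0.19 ± 0.10 (adjusted p = 0.227). It turned the signs of KLF11 and KLF13 as well, and none of the 4 genes passed the test before or after it.

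**Figure D2:**
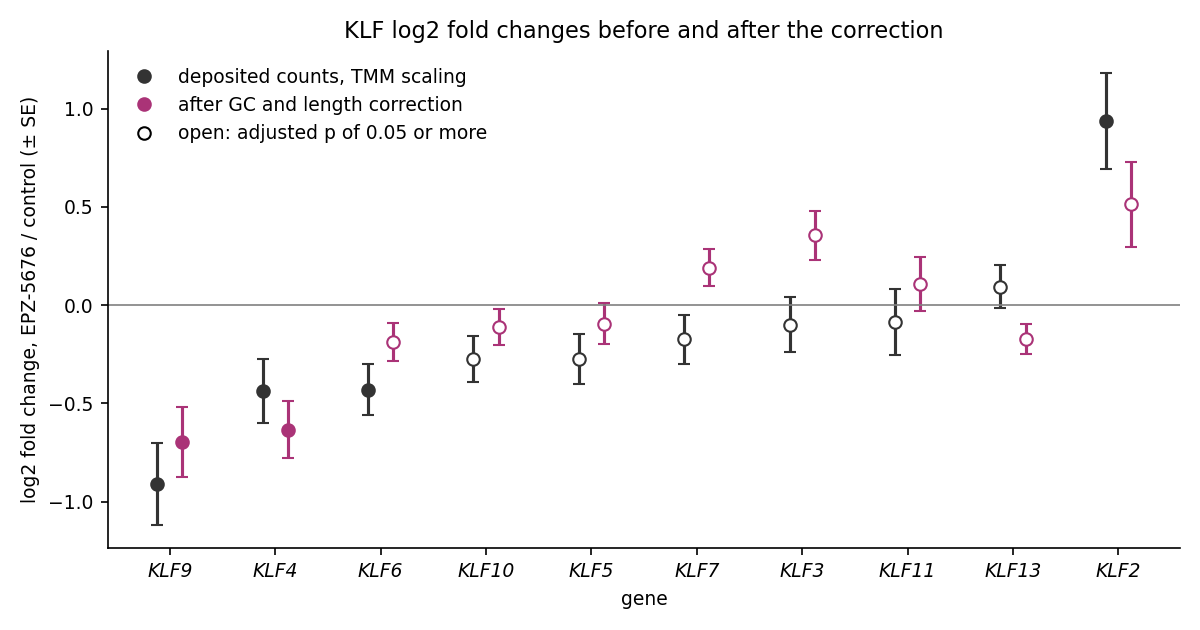
Log2 fold change of each KLF gene, EPZ-5676 over control, with its SE (vertical axis), from the deposited counts (black) and after the GC and length correction (purple), with open symbols for an adjusted p of 0.05 or more. KLF9 and KLF4 are below 0 and filled in both series, KLF2 and KLF6 are filled before the correction alone, and KLF3, KLF7, KLF11 and KLF13 change sign.

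Few annotated genes overlap the members. The antisense transcript KLF3-AS1 shares 688 bases with KLF3 on the opposite strand and had 16 to 65 reads against 676 to 1009 for KLF3, and it did not pass the test (-0.79 ± 0.44, adjusted p = 0.173, edgeR), nor after the correction (-0.69 ± 0.43, adjusted p = 0.357). Within KLF7 the intronic transcript KLF7-IT1 had at most 10 reads, and MIR7845 and MIR2355 at most 2 and 1. UBE2CP4 within KLF13 and AC104794.4 against KLF11 had 0. The libraries mark strand, but whether the counting used it was not found in the labels, so reads of KLF3 and KLF3-AS1 in the shared bases cannot be told apart.

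Over the 10 genes the correlation of log2 fold change with transcript GC content was 0.68 (Pearson's r) and 0.30 (Spearman's rho), and 0.17 and 0.03 without KLF2, so the relation rests on KLF2. These describe 10 genes measured in the same 6 libraries and carry no test. In the plot of fold change against GC content, KLF2 and KLF3 lay above the middle 50% of genes of like GC content, KLF9 and KLF4 lay below it, and the other 6 lay within it.

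**Figure D3:**
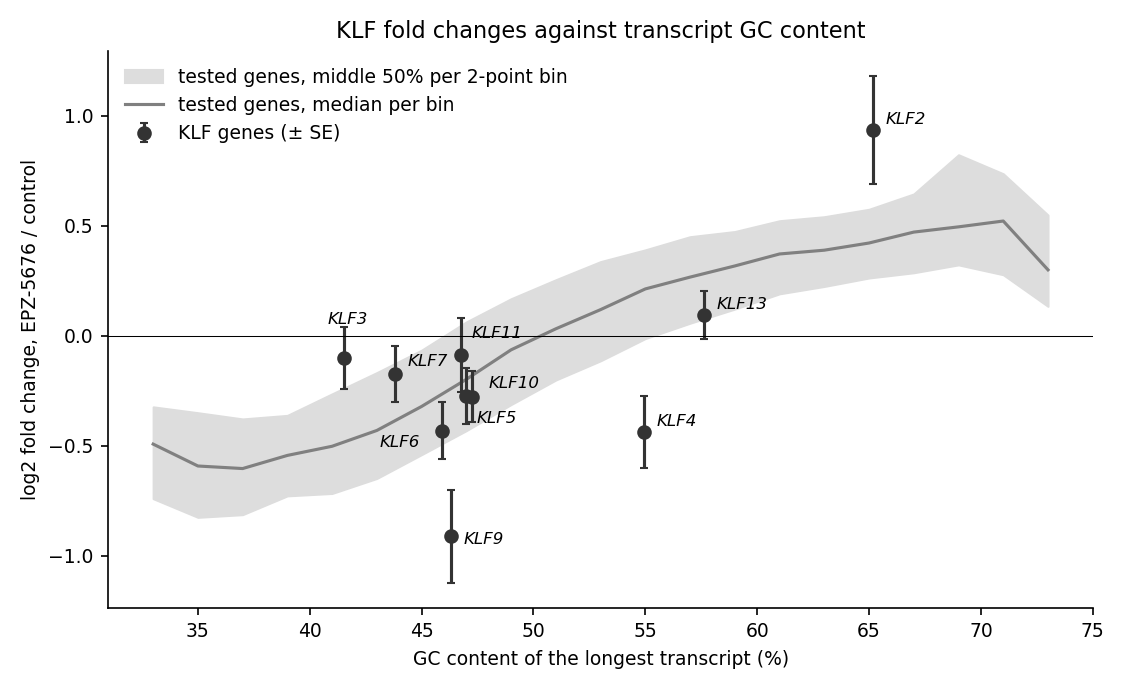
Log2 fold change, EPZ-5676 over control (vertical axis), against the GC content of each gene's longest transcript in percent (horizontal axis), with the 10 KLF genes as points with SE, the median of all tested genes in bins of 2 percentage points as a line, and their middle 50% as a grey band. The line is lowest at 37% GC (-0.60) and highest at 71% (0.52), and KLF2 at 65.2% and KLF3 at 41.5% lie above the band while KLF9 at 46.3% and KLF4 at 55.0% lie below it.

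Promoter sequences are given for KLF2, which rose, and for KLF6 and KLF9, which fell, because they show how far the promoters of these genes differ in base composition. The window of KLF4 lies inside the gene of the count table and is not shown. The sequences come from RefSeq (GRCh38.p14). The promoter windows used were 13 for 8 of the 10 genes, with none for KLF3 and KLF10, whose promoters were not examined. Each runs 5′ to 3′ on the strand of the gene, ends at the start of the gene model or of the RefSeq transcript, whichever comes first, and has the GC box GGGCGG or its reverse complement CCGCCC in capitals.
KLF2, chr19:16324576-16324816, plus strand: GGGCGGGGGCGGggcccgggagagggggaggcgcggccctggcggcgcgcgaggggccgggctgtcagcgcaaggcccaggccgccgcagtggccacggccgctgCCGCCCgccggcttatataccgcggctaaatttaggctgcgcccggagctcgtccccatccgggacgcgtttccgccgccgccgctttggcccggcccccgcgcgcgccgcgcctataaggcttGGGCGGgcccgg
KLF6, chr10:3785282-3785459, minus strand: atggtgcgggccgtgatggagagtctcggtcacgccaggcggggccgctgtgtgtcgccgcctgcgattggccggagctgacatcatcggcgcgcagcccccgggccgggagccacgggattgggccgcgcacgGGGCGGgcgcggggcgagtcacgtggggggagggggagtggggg
KLF9, chr9:70414658-70414907, minus strand: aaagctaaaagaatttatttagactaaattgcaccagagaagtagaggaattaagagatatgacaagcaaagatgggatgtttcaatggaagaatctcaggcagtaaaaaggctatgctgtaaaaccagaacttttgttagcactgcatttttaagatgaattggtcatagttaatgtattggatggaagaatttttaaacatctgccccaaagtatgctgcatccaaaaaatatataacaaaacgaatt
The KLF2 stretch is 79.3% GC and holds 4 GC boxes, 2 of them side by side at its 5′ end. The KLF6 stretch is 76.4% GC with 1 box, and the KLF9 stretch is 32.4% GC with none. The stretches of KLF2, KLF6 and KLF9 differ in length, at 241, 178 and 250 bases. Over the full 250 bases KLF6 has 2 boxes and 72.4% GC, and KLF2 has 4 boxes and 80.0% GC. Of the 13 full windows of 250 bases before a RefSeq start, 8 had a GC box, against 42.6% of all 35116 windows. Counted by gene, 7 of the 8 had a box in some window, all but KLF9. This count by gene cannot be set against the 42.6%, because some genes have more than 1 window. A match describes letters in this window and no binding.

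Levels of different genes were compared per kilobase of the gene length in the table. In control cells KLF10 was highest, at 16.7 ± 2.05 CPM per kilobase (mean ± SD, n = 3), above KLF13 (12.5 ± 1.78), KLF5 (12.2 ± 2.05) and KLF6 (12.1 ± 2.12), which overlapped one another. A gap followed, to KLF4 at 4.46 ± 0.63, KLF7 at 4.18 ± 0.52, KLF3 at 3.84 ± 0.41, KLF9 at 3.48 ± 0.58 and KLF11 at 3.24 ± 0.56, each overlapping the next. KLF2 was lowest at 1.90 ± 0.60 CPM per kilobase, with every control library below every control library of KLF11.

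In treated cells the means of the 4 leading genes kept their order, though libraries of KLF10 and KLF13 overlapped, as did those of KLF5 and KLF6. By its mean KLF2 moved from the lowest place to the sixth (3.63 ± 0.37 CPM per kilobase), but its treated libraries overlapped those of KLF7, KLF3, KLF4 and KLF11. KLF9 moved from the eighth to the lowest (1.85 ± 0.66), without overlap with the others. KLF2 made up 1.86% to 3.70% of the summed level per kilobase of the 10 genes in the controls and 5.33% to 5.67% in the treated libraries. The summed level itself was 68.3 to 84.6 CPM per kilobase in the controls and 60.2 to 68.7 in the treated libraries, with overlap. Transcript isoforms shorter than the full gene model would be under-counted on this scale. Fewer expressing cells and less RNA per cell cannot be told apart in these bulk samples.

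**Figure D4:**
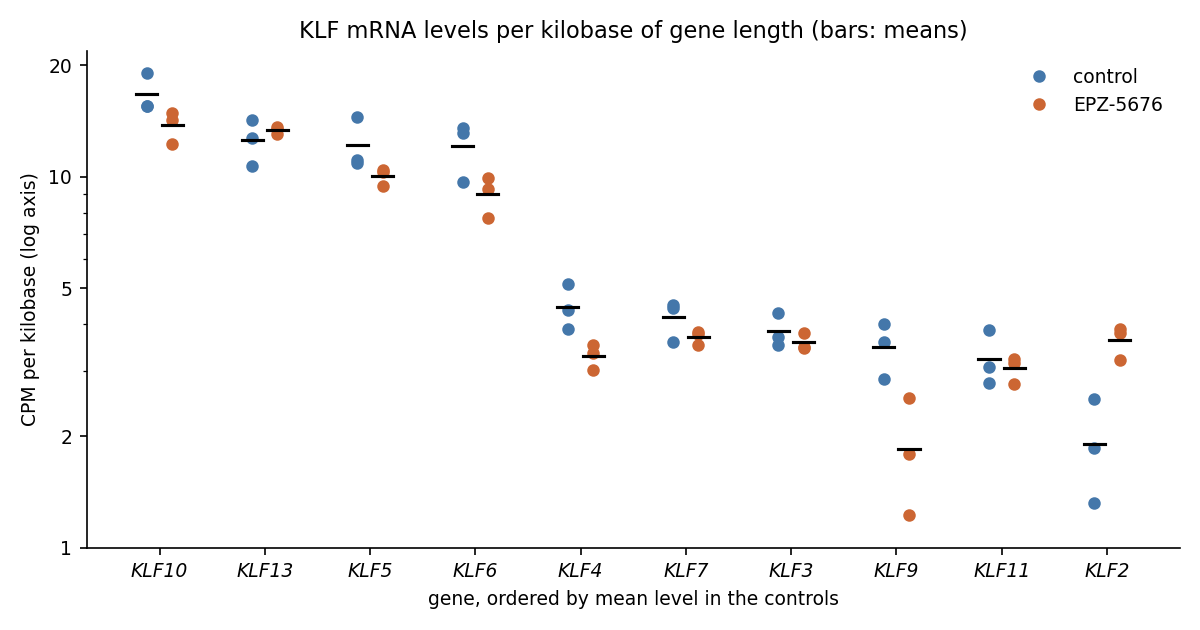
Level of each KLF gene in CPM per kilobase of gene length (vertical axis, log scale) in each control (blue) and EPZ-5676 (orange) library, with black bars for the means and genes ordered by their control mean. KLF10, KLF13, KLF5 and KLF6 stand above the other 6 genes in both groups, while KLF2 is lowest in the controls and KLF9 in the treated libraries.

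Ratios of KLF genes within a library do not depend on how libraries are scaled, and 3 pairs with related or opposed roles were compared. The log2 ratio of KLF4 to KLF5 reads was -1.40, -1.60 and -1.59 in the controls and -1.74, -1.65 and -1.71 in the treated libraries, a difference of -0.17. That of KLF10 to KLF11 was 2.13, 2.29 and 2.11 in the controls and 1.95, 2.00 and 1.98 in the treated libraries, a difference of -0.20. That of KLF9 to KLF13 was -2.44, -3.02 and -2.69 in the controls and -4.33, -3.22 and -3.77 in the treated libraries, a difference of -1.06. In each pair the ratio was lower in all 3 treated libraries than in any control, with an exact two-sided permutation p of 0.1 (0.1 adjusted over the 3 pairs), which is the smallest that 3 against 3 libraries allow and cannot pass 0.05. The ratios do depend on the GC content and length of the 2 genes. Between the corrected fold changes the difference was -0.54 for KLF4 to KLF5, -0.22 for KLF10 to KLF11 and -0.53 for KLF9 to KLF13, an alternative chosen after seeing the data.

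Of the 8 other KLF genes 3 were tested, and KLF12 fell and none rose in edgeR (all tested genes: 18.7% lower and 15.0% higher). At an unadjusted p under 0.05, 1 was higher, and DESeq2 and limma-voom each called 1 higher. KLF12, a CtBP-binding repressor, went from 7.09 ± 1.40 to 4.27 ± 1.03 CPM (mean ± SD, n = 3 each; log2 fold change -0.73 ± 0.24, adjusted p = 0.0234). The call was lost without control replicate 1 (adjusted p = 0.0554), control replicate 3 (0.148), treated replicate 1 (0.112) or treated replicate 3 (0.051), and after the correction (-0.18, adjusted p = 0.647). KLF16, a SIN3-binding repressor, was at 58.8 ± 10.8 and 73.0 ± 4.58 CPM (0.31 ± 0.12, adjusted p = 0.0526), just over the threshold. It was past the threshold in 9 of 24 alternative fits, among them the one without control replicate 2, the library with immune markers (0.49, adjusted p = 0.00258). After the correction it was at -0.17 (adjusted p = 0.241). KLF17, at means of 0.616 and 0.549 CPM, did not pass (adjusted p = 0.874). KLF1, KLF8 and KLF18 had 0 reads in every library, and KLF14 and KLF15 had at most 6 and 10.

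The SP factors share the KLF binding site, and of 9 SP genes 7 were tested, of which 2 rose and 2 fell, against 15.0% and 18.7% of all tested genes. SP1, the general activator of GC-box promoters, fell from 109.5 ± 19.1 to 75.5 ± 14.3 CPM (-0.53 ± 0.14, adjusted p = 0.00555, edgeR), and SP3 from 23.2 ± 3.71 to 15.6 ± 0.94 CPM (-0.57 ± 0.16, adjusted p = 0.00776). SP6 rose from 4.99 ± 1.28 to 9.10 ± 1.21 CPM (0.87 ± 0.22, adjusted p = 0.00553). SP5, a Wnt target, had 1, 2 and 13 reads in the controls and 10, 23 and 43 in the treated libraries, which overlap (adjusted p = 0.0443). SP2, SP4 and SP8 did not pass (adjusted p = 0.59, 0.625 and 0.79), and SP7 and SP9 were too low to test. The call of SP1 was lost without control replicate 3 (-0.43, adjusted p = 0.0519). That of SP5 was lost without control replicate 1 (adjusted p = 0.169) or 2 (0.114), or treated replicate 2 (0.0802) or 3 (0.231), and its log2 fold change of 2.25 became 3.99 without control replicate 3. After the correction no SP gene was called (2 higher and 1 lower at an unadjusted p under 0.05), with SP1 at -0.22, SP3 at -0.04 and SP6 at 0.53.

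Of 13 corepressors and coactivators that KLF proteins recruit, 4 rose and 3 fell, where 15.0% and 18.7% of all tested genes did. The corepressor CTBP2, which binds KLF3 and KLF12, fell from 42.0 ± 2.38 to 28.97 ± 0.47 CPM (-0.54 ± 0.12, adjusted p = 0.0023, edgeR), while its paralog CTBP1 was at 65.0 ± 4.14 and 74.96 ± 4.12 CPM (adjusted p = 0.139). The deacetylase HDAC2 fell (-0.67 ± 0.14, adjusted p = 0.00137), and HDAC1 did not pass (0.15 ± 0.09, adjusted p = 0.244). The acetylase KAT2A rose (0.50 ± 0.11, adjusted p = 0.00234) and its relative KAT2B fell (-0.80 ± 0.20, adjusted p = 0.00561). After the correction HDAC1 was the only call of the list (0.29 ± 0.07, adjusted p = 0.0107; 5.40% of all genes were then called higher and 5.57% lower), lost without treated replicate 1 (0.27, adjusted p = 0.0549). CTBP2 was then at -0.13, HDAC2 at -0.11, KAT2A at 0.16 and KAT2B at -0.47.

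Of 14 inducers and ubiquitin ligases of KLF proteins 13 were tested, and 4 rose and 3 fell (all tested genes: 15.0% and 18.7%), and after the correction 2 were higher and none lower (5.40% and 5.57%; 3 and 1 at an unadjusted p under 0.05 in edgeR). KLF2 transcription is known to be driven by the kinase cascade of MAP3K3, MAP2K5 and MAPK7 (ERK5) acting on MEF2 factors. MAPK7 rose from 29.1 ± 3.29 to 42.7 ± 3.38 CPM (0.56 ± 0.13, adjusted p = 0.00282, edgeR). MEF2D, chosen after its values were seen, rose by 0.35 ± 0.11 (adjusted p = 0.0195), a call lost without control replicate 1 (0.25, adjusted p = 0.0756), treated replicate 2 (adjusted p = 0.0536) or treated replicate 3 (adjusted p = 0.079). MAP3K3 (0.29 ± 0.11) and MAP2K5 (0.25 ± 0.14) did not pass (adjusted p = 0.0545 and 0.171), although MAP3K3 passed in 7 of 24 alternative fits, including that without control replicate 2 (0.34, adjusted p = 0.0348). MEF2A, named after its values were seen, leaned lower and did not pass (-0.31 ± 0.20, adjusted p = 0.227, edgeR). After the correction MEF2A was at 0.17 (adjusted p = 0.578), and MEF2C was too low to test. After the correction MAPK7 was at 0.27 (adjusted p = 0.0917) and MEF2D at 0.10 (adjusted p = 0.485).

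The F-box protein FBXO32, which targets KLF4 protein for degradation, rose from 4.09 ± 1.24 to 10.8 ± 2.43 CPM (1.39 ± 0.24, adjusted p = 0.000347, edgeR), and by 1.78 ± 0.23 after the correction (adjusted p = 3.97e-05). Its mRNA was past the threshold in all 24 alternative fits. ITCH, a ligase of KLF10, fell from 39.2 ± 5.93 to 25.1 ± 1.29 CPM (-0.64 ± 0.14, adjusted p = 0.0015), and the coactivator YAP1, which stabilises KLF5, from 93.5 ± 14.4 to 63.0 ± 3.71 CPM (-0.57 ± 0.12, adjusted p = 0.00131). After the correction neither passed (-0.10, adjusted p = 0.615, and -0.19, adjusted p = 0.148). WWP1, a ligase of KLF2 and KLF5 named after its values were seen, fell from 9.56 ± 2.24 to 5.76 ± 1.16 CPM (-0.73 ± 0.22, adjusted p = 0.0135), a call lost without control replicate 1 (-0.51, adjusted p = 0.122), treated replicate 1 (adjusted p = 0.0579) or treated replicate 3 (adjusted p = 0.0616). The corrected value of WWP1 was -0.19 (adjusted p = 0.58). SMURF1, a ligase of KLF2 chosen here after its values were seen, rose by 0.47 ± 0.14 (adjusted p = 0.0151), lost without treated replicate 1 (adjusted p = 0.066) or 3 (adjusted p = 0.0903). After the correction it was at 0.40 (adjusted p = 0.0333), a call that held in the fits with 1 library left out only without treated replicate 2 (adjusted p of 0.0614 to 0.147 without each of the others). These are mRNA levels, and no KLF protein was measured.

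Of 14 early genes of TGF-beta, the signal that induces KLF10 and KLF11, 3 rose and 1 fell, near the 15.0% and 18.7% of all tested genes. ID1 (0.36 ± 0.09, adjusted p = 0.00641), GADD45B (0.38 ± 0.10, adjusted p = 0.00763) and PMEPA1 (0.27 ± 0.10, adjusted p = 0.0482) rose, and the inhibitory SMAD7 fell (-0.40 ± 0.15, adjusted p = 0.0413, edgeR). The most abundant genes that did not pass were TGFBI (554.1 ± 38.7 and 549.9 ± 36.4 CPM, adjusted p = 0.947) and BHLHE40 (546.5 ± 64.1 and 487.2 ± 8.23 CPM, adjusted p = 0.229). The calls of PMEPA1 and SMAD7 were lost without any library but control replicate 2 (adjusted p up to 0.174 for PMEPA1 without treated replicate 3 and up to 0.154 for SMAD7 without treated replicate 3). After the correction SMAD7 (-0.70 ± 0.13, adjusted p = 0.0012) and SMAD6 (-0.48 ± 0.13, adjusted p = 0.0176) were lower and TGIF1 higher (0.34 ± 0.10, adjusted p = 0.0265), and the other 3 genes were no longer called (5.40% and 5.57% of all genes). SMAD6 and TGIF1, named after their values were seen, were each lost without control replicate 1, treated replicate 1 or treated replicate 2 (adjusted p up to 0.147), and TGIF1 also without treated replicate 3 (adjusted p = 0.0536).

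**Figure D5:**
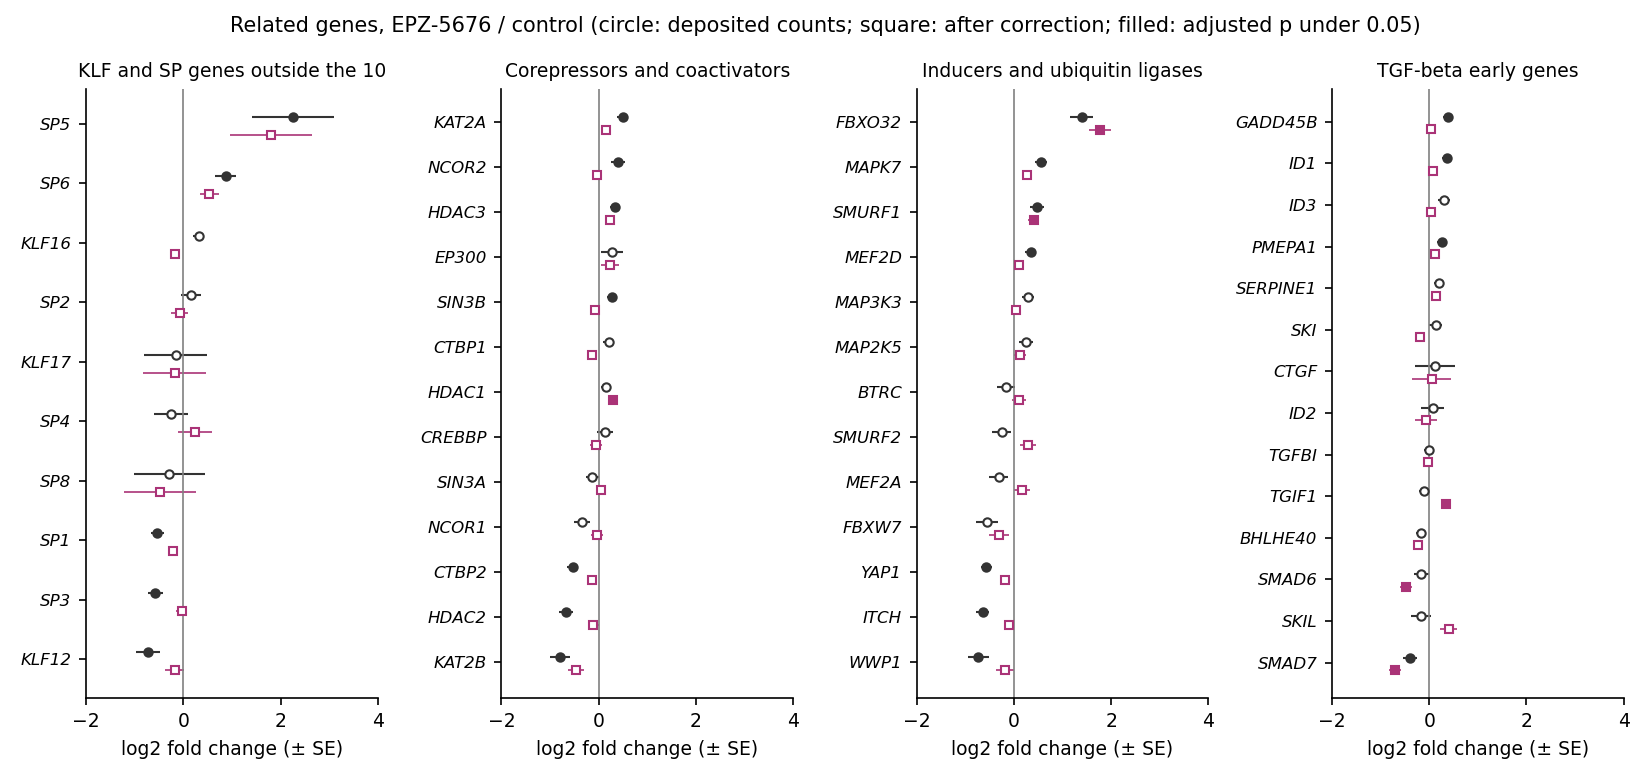
Log2 fold change, EPZ-5676 over control, with SE (horizontal axes) of the tested genes of 5 lists related to the KLF family, drawn in 4 panels, with circles from the deposited counts, squares after the GC and length correction, and filled symbols for an adjusted p under 0.05. FBXO32, SMURF1 and SMAD7 are filled in both series, and most other filled circles have an open square closer to 0.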

How the data were processed

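RNA-seq counts of 6 SW1990 libraries were analysed, grouped by sample title. Per the labels' protocols, poly(A) RNA was selected and libraries mark strand by dUTP. The submitters' processing notes name HISAT2 2.2.1 and the build GRCh38. Whole-number read counts per gene, not normalized, and a gene length in bases make up the deposited table. How reads were counted, and with which annotation and strand setting, was not found in the labels, but all 58735 genes had the start and end of GENCODE 29, from which GC content and length of the longest transcript were taken.

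The test was edgeR's (version 4.0.16, R 4.3.3; filterByExpr with a minimum count of 10, TMM, robust quasi-likelihood test, Benjamini-Hochberg adjustment over 15496 genes). SE is the log2 fold change divided by the square root of F. The correction fits, in each library, splines with 5 degrees of freedom for GC content and length to log2 CPM deviations (prior count 2) and enters them as offsets. Ratios used counts plus 0.5 and SciPy 1.17.1. In data simulated from these libraries over 15496 genes, 59 of 100 genes changed 2-fold and 35 of 100 changed 1.5-fold were recovered, with 5 false calls. The simulated data held no trend with GC content or length and no other changed genes. These rates therefore do not measure the errors in the real data. DESeq2 1.42.0, limma 3.58.1 (voom), other scalings and filters, a replicate block and left-out libraries were alternatives. The members, gene lists and tests were chosen with earlier results of these data known. All 10 members were named, with the other tested KLF and SP genes, and from each further list the called genes with the 4 smallest p and up to 2 of the most expressed others. EPCAM, MEF2A, MEF2D, SMURF1, WWP1, SMAD6 and TGIF1 fall outside this rule and were named after their values were seen. CDH1, KRT19 and MEF2C also fall outside it. PTPRC, LYZ and CD3E were singled out by their reads in control replicate 2, and COL1A1 and DCN by their levels. Figures used Python 3.11.15 and matplotlib 3.10.9. A further immune marker besides the 5 summed is not reported here.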

Additional observations from a re-analysis of the deposited data

How the results depend on the processing

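Each result was recomputed under up to 24 alternatives, 12 of which left out 1 library, with or without the correction, so that their ranges mix both. KLF9 was past the threshold in 21 of 24, KLF2 in 15, KLF4 in 14 and KLF6 in 11, and none of these 4 changed sign. The number of members called higher was 0 with the GC correction, 0 with the GC and length correction and 0 with that correction and the replicate block, and 0 to 1 without 1 library. Members called lower were 0 to 3 without 1 library. Over all genes, 761, 836 and 688 were called higher and 729, 863 and 685 lower with the same 3 corrections, and 397 to 2780 higher and 512 to 3167 lower without 1 library. Higher genes were 44.5% of calls, and 55.6% with the length correction. The replicate block alone gave 1677 higher and 2219 lower calls and lost KLF4 (adjusted p = 0.0976, edgeR). Same-numbered libraries did not deviate together (correlations -0.11, -0.09 and 0.05), so the numbers were not taken as pairs, and not every library correlated best with its own number.

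These log2 fold changes changed sign, and the cause was not tested. With the GC correction, the GC and length correction, and the latter with the replicate block, KLF3 was at 0.36, 0.35 and 0.36, KLF7 at 0.19, 0.19 and 0.19, KLF11 at 0.11, 0.11 and 0.11, KLF13 at -0.18, -0.17 and -0.17, KLF16 at -0.16, -0.17 and -0.17, SP2 at -0.066, -0.075 and -0.066, SP4 at 0.24, 0.23 and 0.22, CTBP1 at -0.14, -0.14 and -0.14, and TGIF1 at 0.35, 0.34 and 0.35. MEF2A was at 0.17 with the GC and length correction, and its other alternatives are not given. With the length correction KLF3 was at 0.052, KLF7 at 0.062 and KLF11 at 0.018, and with limma-voom KLF17 was at 0.046. TGFBI was at 0.0304 with RLE scaling, 0.0041 with upper-quartile scaling, 0.125 with the length correction and 0.0287 with DESeq2. Without 1 library the values ran from -0.15 to 0.42 for KLF3, -0.34 to 0.026 for KLF5, -0.26 to 0.21 for KLF7, -0.17 to 0.22 for KLF11, -0.21 to 0.19 for KLF13, -0.22 to 0.49 for KLF16, -0.59 to 0.45 for KLF17, -0.23 to 0.32 for SP2, -0.50 to 0.52 for SP4, -1.01 to 0.29 for SP8, -0.20 to 0.27 for CTBP1, -0.83 to 0.018 for HDAC2, -0.082 to 0.033 for TGFBI and -0.14 to 0.41 for TGIF1. The difference in the KLF4 to KLF5 ratio was -0.54 after the GC and length correction, chosen after seeing the data, against -0.17. Depth limits KLF2 most among the members (106 to 303 reads).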
